A study of Mus musculus with 20 samples.

Results

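The expression of 10 genes of Fc receptor and myeloid signaling is described in the left ventricle of mice fed 1 of 4 diets. They were the Fc receptor genes Fcgr1, Fcgr2b and Fcgr3, the adapter genes Fcer1g and Tyrobp, the phosphatase gene Ptpn6, and the leukocyte genes Laptm5, Lcp1, Cd53 and Csf1r. The 10 genes were named by symbol, all were among the 15956 genes of the count table, and all passed the filter on low counts that left 13991 genes for testing. The list was drawn up with the differences of HF from NP and of HF + LP from HF in view, so those values, and those of HF + LP against NP and of the interaction, are given as descriptions with no test. Mean normalized counts over all mice were above 50 for 9 members, and Fcgr1 averaged 43.0, which is below the minimum that a call required.

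Messenger RNA was sequenced from the 3′ end of transcripts in 20 mice, 5 per diet. The NP diet held casein at a normal level, the LP diet held less casein, the HF diet was rich in fat with normal casein, and the HF + LP diet joined high fat with low casein. Per the study's methods the mice were male, came from the Jackson Laboratory and were housed in groups. Their strain is not given in the sources used here. All mice are labelled as 18 months old, while the study's methods describe younger animals. Each library is from a different animal, named here by diet and animal number.

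Fc receptors are surface proteins of leukocytes that bind the constant part of antibodies. The activating receptors encoded by Fcgr1 and Fcgr3 signal through the common γ chain encoded by Fcer1g, whose cytoplasmic ITAM motif is phosphorylated and then recruits the kinase SYK. Tyrobp encodes DAP12, a related ITAM adapter that serves other myeloid receptors. The receptor encoded by Fcgr2b carries an inhibitory ITIM motif instead, and Ptpn6 encodes SHP-1, a phosphatase that ITIM receptors recruit. In the heart these genes are known mainly from resident macrophages and from leukocytes that enter the tissue.

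Fcgr2b, Fcgr3 and Fcer1g are neighbours on the minus strand of chromosome 1 (GRCm38, GENCODE M21) at chr1:170958617-170976547, chr1:171051174-171064935 and chr1:171229572-171234365, respectively. Fcgr1 (chr3:96282909-96293969) and Cd53 (chr3:106759921-106790149) lie on the minus strand of chromosome 3. Tyrobp (chr7:30413760-30417585), Laptm5 (chr4:130913125-130936141) and Lcp1 (chr14:75131101-75230842) lie on plus strands and Ptpn6 (chr6:124720707-124738714) on a minus strand. All 10 are protein-coding. Fcgr2b, Fcgr3 and their neighbour Fcgr4 are close paralogs, and how the counting treated reads that match more than 1 gene is not given in the sources used here. The 3′ end of Csf1r overlaps Hmgxb3, a counted gene on the opposite strand, and whether the counting used strand is not given either.

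Promoters are shown for the 4 members that hold GAGGAA or its reverse complement TTCCTC, the core of the site bound by PU.1, a transcription factor that most myeloid cells need. A window from 250 bases before to 50 bases after the RefSeq (GRCm38.p6) start was examined for 8 of the 10 members. Each window is printed 5′ to 3′ on the gene's strand, with the motif in capitals. They are Fcgr1 (chr3:96293920-96294219, minus strand), Fcgr3 (chr1:171059354-171059653, minus strand, the first of its 2 entries), Laptm5 (chr4:130913066-130913365, plus strand) and Cd53 (chr3:106790100-106790399, minus strand).
Fcgr1: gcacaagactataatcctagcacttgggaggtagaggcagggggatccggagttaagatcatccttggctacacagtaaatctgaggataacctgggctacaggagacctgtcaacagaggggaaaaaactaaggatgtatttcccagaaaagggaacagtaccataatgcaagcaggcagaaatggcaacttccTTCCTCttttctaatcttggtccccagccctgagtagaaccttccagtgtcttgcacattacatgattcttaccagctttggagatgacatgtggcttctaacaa
Fcgr3: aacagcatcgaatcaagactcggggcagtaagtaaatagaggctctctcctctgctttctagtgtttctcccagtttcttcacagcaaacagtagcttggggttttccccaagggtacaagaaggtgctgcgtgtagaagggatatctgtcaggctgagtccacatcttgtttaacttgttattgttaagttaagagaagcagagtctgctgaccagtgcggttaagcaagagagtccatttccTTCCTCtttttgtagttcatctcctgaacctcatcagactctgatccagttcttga
Laptm5: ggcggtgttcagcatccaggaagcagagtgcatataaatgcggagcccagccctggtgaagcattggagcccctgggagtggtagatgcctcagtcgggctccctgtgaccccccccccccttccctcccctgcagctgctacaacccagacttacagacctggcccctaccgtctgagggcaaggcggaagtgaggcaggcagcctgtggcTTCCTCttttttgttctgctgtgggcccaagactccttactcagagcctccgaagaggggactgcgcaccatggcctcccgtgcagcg
Cd53: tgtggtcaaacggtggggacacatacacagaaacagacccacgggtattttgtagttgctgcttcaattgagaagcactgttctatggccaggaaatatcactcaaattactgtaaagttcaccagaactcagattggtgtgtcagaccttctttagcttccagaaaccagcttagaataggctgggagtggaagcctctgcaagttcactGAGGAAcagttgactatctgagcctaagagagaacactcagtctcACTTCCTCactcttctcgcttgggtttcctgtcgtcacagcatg

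The motif began 55 bases before the start in Fcgr1, 6 bases before it in Fcgr3 and 38 bases before it in Laptm5. In the second entry of Fcgr3 it began 15 bases before the start. The RefSeq starts used for Fcgr3 lie within the GENCODE span given above and not at its end. Cd53 held GAGGAA 39 bases before the start and TTCCTC within the longer form ACTTCCTC, which is capitalized with it. On either strand, 28.3% of the 32851 RefSeq windows of this length that were examined held the motif, and 3.2% held the longer GAGGAAGT. In Fcgr1 and Fcgr3 the motif lay in a shared run of 14 bases, ttccttcctctttt, and Fcgr3 and Laptm5 shared cttcctcttttt. The windows of Fcer1g, Fcgr2b, Lcp1 and Ptpn6 did not hold these letters. Tyrobp and Csf1r were not examined for the motif, so nothing is said of their promoters. Spi1, the gene of PU.1, had normalized counts of 70.0 ± 13.6 (NP), 75.4 ± 11.1 (LP), 101 ± 25.0 (HF) and 73.1 ± 7.42 (HF + LP; SD, n = 5), and was chosen for mention after its values were seen.

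Total counts per library lay between 12559607 and 23331907, and 2 LP libraries stood apart. LP 20 had a summed T cell marker level of 697 CPM, counts scaled to library size, against 3.43 to 12.5 CPM in the other 19 mice, and its B cell markers summed to 627 CPM. LP 13 had the lowest median correlation with its own group, 0.908 against 0.944 to 0.979 for the others, and the highest atrial and adipocyte marker sums, 17700 and 352 CPM. The members' comparisons with the LP group are therefore given with and without these mice, as are the counts from LP to HF + LP over the lists for which they are printed. The share of counts from mitochondrial genes was 41.3% to 47.1% (NP), 35.4% to 44.6% (LP), 38.1% to 39.8% (HF) and 38.5% to 47.2% (HF + LP), and its part in the results was not tested.

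The adapter genes were highest in HF hearts. Normalized counts of Fcer1g, the shared γ chain, were 294, 284, 354, 308 and 308 in the NP mice and 366, 474, 417, 527 and 494 in the HF mice. They were 265, 215, 364, 396 and 332 in LP and 262, 385, 330, 423 and 391 in HF + LP. Every HF mouse exceeded every NP mouse, while the HF + LP and LP ranges overlapped. Tyrobp, the DAP12 adapter, gave 193, 177, 186, 214 and 191 in NP and 234, 303, 279, 361 and 326 in HF. It gave 158, 138, 186, 227 and 214 in LP and 181, 201, 238, 265 and 263 in HF + LP. The pattern was that of Fcer1g, with all 5 HF mice above all 5 NP mice. From NP to HF the log2 fold change was 0.56 (SE 0.16) for Fcer1g and 0.65 (SE 0.15) for Tyrobp. In bulk tissue, more cells of a type and more RNA per cell cannot be told apart, here or in the results that follow.

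Among the receptors, Fcgr1 differed most between NP and HF. This gene encodes the high-affinity receptor for IgG. Its normalized counts were 26.4, 25.1, 32.8, 40.4 and 29.4 in NP, 38.6, 26.7, 33.96, 26.5 and 29.4 in LP, and 29.2, 35.3, 36.1, 48.2 and 33.0 in HF + LP. In HF they were 39.4, 77.8, 47.2, 101 and 104, so that 4 of 5 HF mice exceeded all NP mice, and HF 1 lay below NP 6. The log2 fold change from NP to HF was 1.26 (SE 0.25), the largest of the 10, and that from HF to HF + LP was -1.03 (SE 0.24). Fcgr2b, the inhibitory receptor, was the member whose HF + LP mice all lay below the HF mice, with 77.6, 88.3, 135, 95.9 and 118 in HF and 77.1, 68.4, 67.5, 53.8 and 52.6 in HF + LP. The highest HF + LP mouse lay just under the lowest HF mouse. In NP, Fcgr2b gave 50.6, 99.1, 68.2, 46.5 and 62.2, and in LP 69.2, 59.5, 88.7, 79.4 and 71.0. NP 4 thus reached the HF range. Fcgr3, the low-affinity activating receptor, averaged 200 ± 9.87 (NP), 202 ± 47.2 (LP), 288 ± 41.1 (HF) and 193 ± 40.0 (HF + LP; SD, n = 5). Its HF mice, between 226 and 337, all lay above the NP mice, between 190 and 211.

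Ptpn6, the SHP-1 phosphatase, was the member with the largest difference of HF + LP from NP. Its normalized counts were 79.2, 69.2, 64.3, 52.5 and 61.1 in NP and 99.2, 123, 93.4, 162 and 156 in HF. In HF + LP they were 83.3, 136, 108, 133 and 119, and in LP 59.9, 63.6, 69.2, 97.1 and 267. All HF and all HF + LP mice exceeded all NP mice, and LP 20 exceeded every other mouse of the study. The log2 fold change was 0.96 (SE 0.33) from NP to HF, 0.83 (SE 0.33) from NP to HF + LP and -0.13 (SE 0.32) from HF to HF + LP. Leaving out 1 mouse at a time, the last of these lay between -0.22 (without HF 3) and -0.027 (without HF 4). The spread was estimated over all diets together, so LP 20 enters these SEs. Without that mouse the log2 fold changes, in the same order, were 0.96, 0.82 and -0.14, each with an SE of 0.18.

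**Figure D1:**
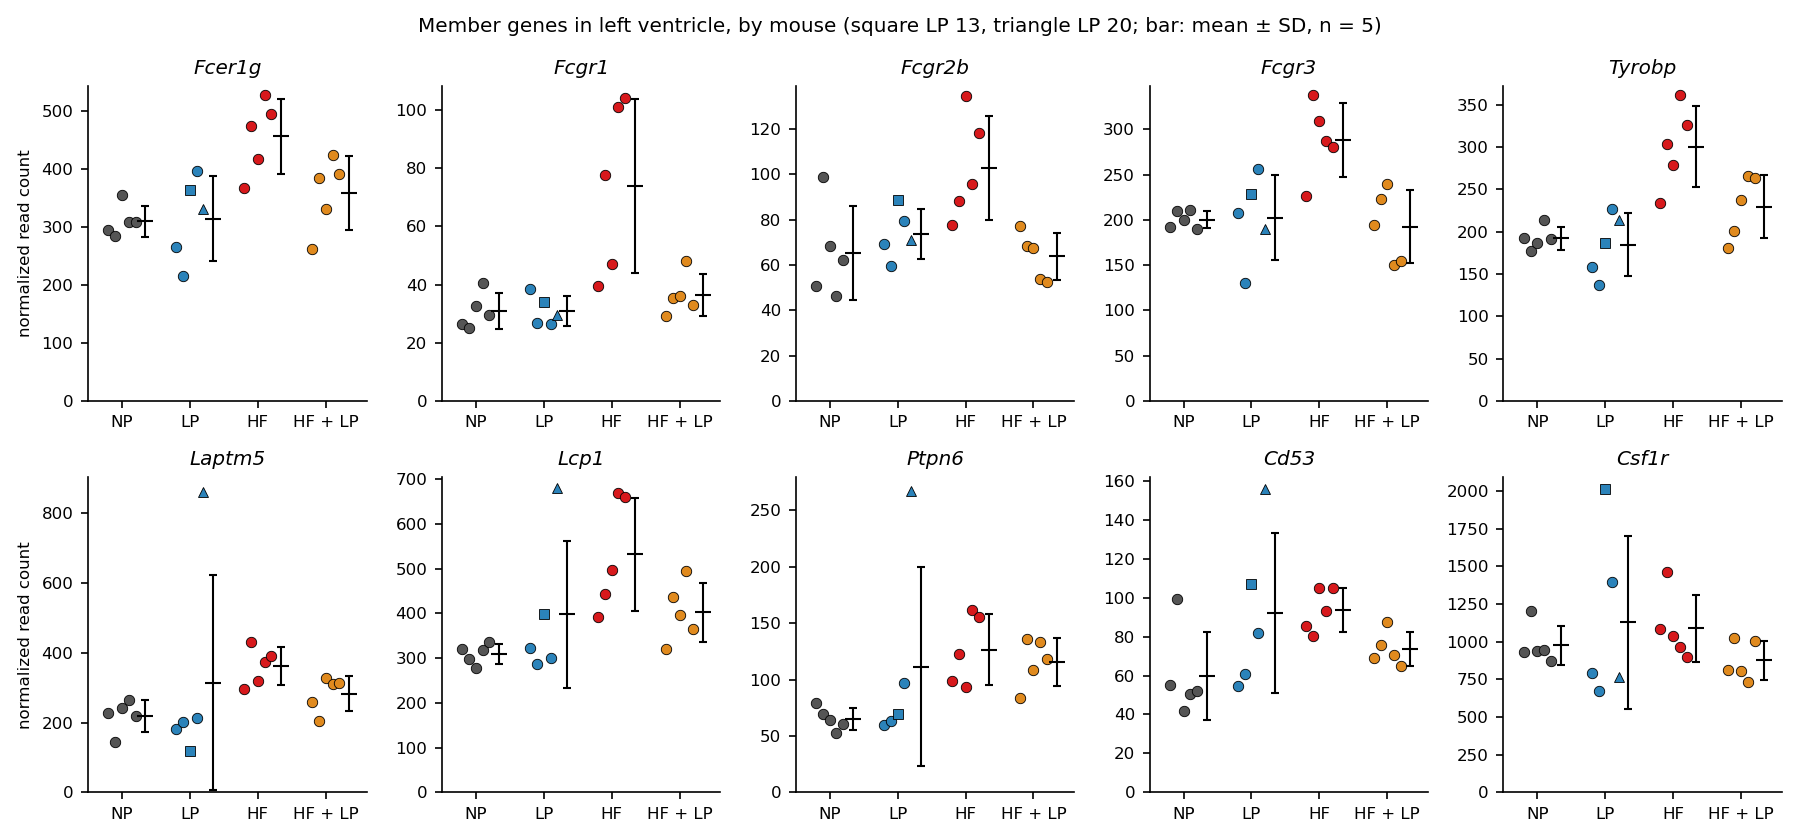
Normalized read count (y axis, from 0) of each of the 10 genes in the 5 mice of each diet (x axis), with a square for LP 13, a triangle for LP 20, and the mean ± SD beside each group. HF mice were above all NP mice in Fcer1g, Fcgr3, Tyrobp, Laptm5, Lcp1 and Ptpn6, and LP 20 was the highest LP mouse in Laptm5, Lcp1, Ptpn6 and Cd53.

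In Laptm5, a lysosomal membrane protein of leukocytes, LP 20 stood far above the other LP mice. Its normalized counts were 181, 201, 119, 213 and 860 in LP, against 229, 144, 241, 266 and 219 in NP. They were 298, 431, 320, 372 and 391 in HF and 258, 205, 327, 311 and 312 in HF + LP. LP 20 was 4.5-fold above the median of the other LP mice, which all lay at or below the NP maximum. Lcp1, which encodes the leukocyte actin-bundling protein L-plastin, gave 319, 298, 278, 318 and 337 in NP and 392, 443, 498, 668 and 659 in HF. It gave 323, 287, 399, 300 and 681 in LP and 321, 436, 396, 494 and 364 in HF + LP. Here LP 20 reached the level of the highest HF mice. Cd53, a leukocyte tetraspanin, averaged 59.8 ± 22.5 (NP), 91.9 ± 41.2 (LP), 93.7 ± 11.2 (HF) and 73.5 ± 8.74 (HF + LP; SD, n = 5), with a range of 42.0 to 99.1 in NP and 80.4 to 105 in HF.

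Csf1r, the receptor for CSF1 and IL-34 on macrophages, was the 1 member whose group mean was highest in LP and not in HF. Its normalized counts were 932, 1202, 938, 946 and 870 in NP, 1087, 1463, 1038, 964 and 895 in HF, and 813, 1025, 808, 731 and 1006 in HF + LP. In LP they were 789, 673, 2016, 1395 and 766. The high LP mice were LP 13 and LP 15, and LP 13 was 2.59-fold above the median of the other LP mice. Its log2 fold change from NP to HF was 0.16 (SE 0.23), the smallest of the 10, and lay between 0.027 (without HF 2) and 0.24 (without NP 4) when 1 mouse was left out. Group means were ordered with HF highest in the other 9 members, and with LP highest in Csf1r. That rests on LP 13, since without it Csf1r averaged 906 ± 330 in LP (SD, n = 4), below HF and NP. Without LP 13 alone, Laptm5 was highest in LP, at 364 ± 331 (SD, n = 4) against 362 in HF. Without LP 13 and LP 20, HF was highest in all 10. NP was lowest in 6 members, HF + LP in Fcgr2b, Fcgr3 and Csf1r, and LP in Tyrobp, and without both mice LP was lowest in Fcer1g, Fcgr1, Tyrobp, Laptm5 and Lcp1.

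From NP to HF, all 10 members had a log2 fold change above 0, with a median of 0.66, beside -0.0011 over all genes tested and 49.8% of them above 0. The groups did not overlap in 6 members (Fcer1g, Fcgr3, Tyrobp, Laptm5, Lcp1 and Ptpn6), beside 2.07% of all genes. These counts describe a contrast that the list was drawn from, and nothing is read from them.

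From HF to HF + LP, all 10 members had a log2 fold change below 0, with a median of -0.37 beside 0.02 over all genes, of which 53.7% were above 0. The values reached from -0.13 in Ptpn6 to -1.03 in Fcgr1, with Fcgr2b at -0.69, Fcgr3 at -0.58, Lcp1 at -0.41 and Tyrobp at -0.39. Fcgr2b was the 1 member with groups that did not overlap, beside 0.636% of genes. The list was drawn from this contrast too. From NP to HF + LP, 7 members were higher (50.2% of genes) with a median of 0.24. Ptpn6 was the member whose groups did not overlap, beside 0.965% of genes. These comparisons share the HF, NP and HF + LP mice, so their values stand side by side and are not independent.

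**Figure D2:**
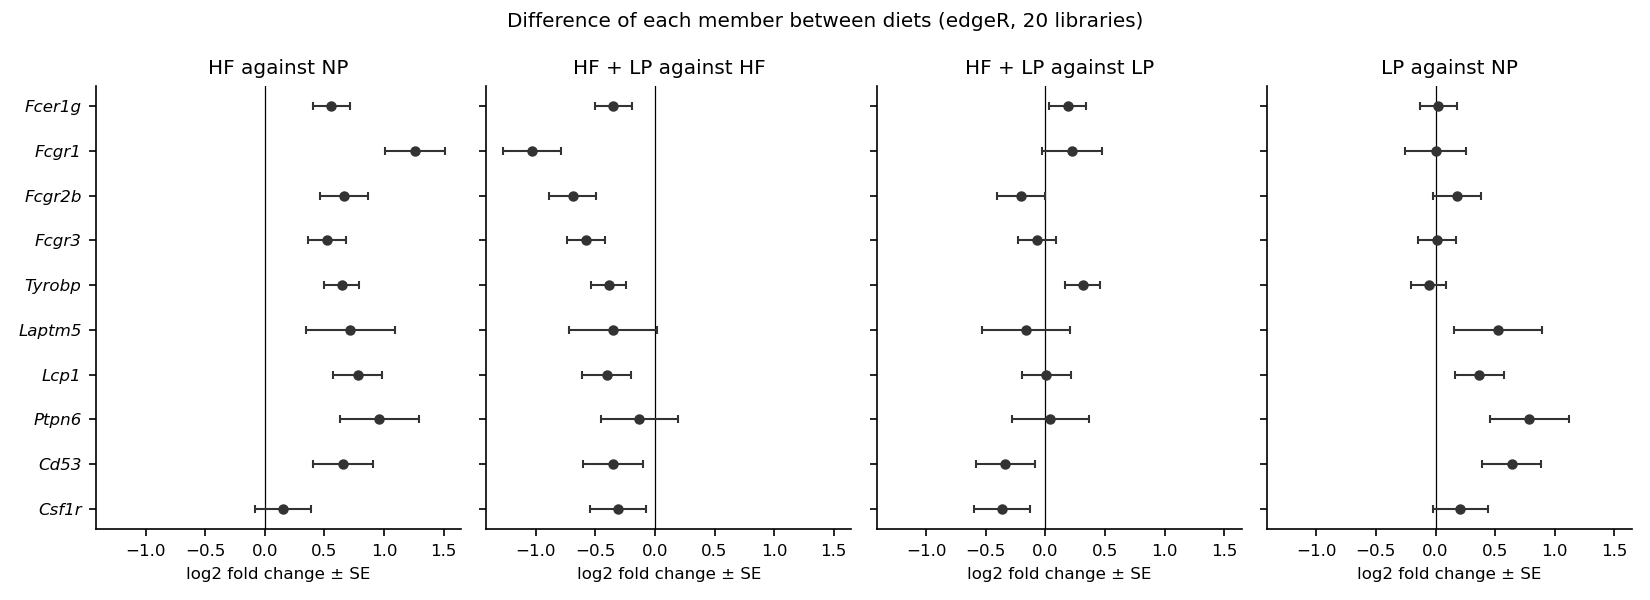
Log2 fold change ± SE (x axis) of each gene (y axis) in 4 comparisons of diets, from the edgeR fit to 20 libraries. From NP to HF all 10 genes lie above 0, from HF to HF + LP all 10 lie below 0, and from LP to HF + LP they lie on both sides, between -0.37 and 0.31.

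HF + LP was compared with LP to ask what high fat does under low protein. The HF + LP mice also enter the contrast with HF that the list was drawn from. This test is thus not independent of the choice of members. No member passed the test, with 5 higher (45.8% of all genes were) and 5 lower, and a median log2 fold change of -0.031, beside -0.030 over all genes. Tyrobp came nearest, at 0.31 (SE 0.15), with means of 185 ± 37.3 in LP and 230 ± 37.5 in HF + LP (SD, n = 5) and an edgeR adjusted p of 0.299. Its adjusted p lay between 0.222 and 0.593 over 30 other ways of fitting. The largest differences were those of Csf1r, at -0.37 (SE 0.23, edgeR adjusted p of 0.453), and Cd53, at -0.34 (SE 0.25, adjusted p of 0.522). Fcer1g was at 0.19 (SE 0.16), Fcgr1 at 0.23 (SE 0.25), Fcgr3 at -0.07 (SE 0.16) and Fcgr2b at -0.21 (SE 0.20), differences of about the size of their SEs or smaller. Leaving out 1 mouse at a time, Csf1r ranged from -0.50 (without LP 5) to -0.045 (without LP 13), Fcer1g from 0.079 (without LP 5) to 0.28 (without HF + LP 1), Fcgr1 from 0.11 (without HF + LP 4) to 0.31 (without LP 2) and Fcgr2b from -0.28 (without HF + LP 1) to -0.13 (without LP 13). Tyrobp was the 1 member with an unadjusted p under 0.05, beside 6.26% of genes higher, and no lower member had one, beside 9.66% of genes lower. A gene was called if its mean normalized count exceeded 50 and its adjusted p (Benjamini-Hochberg) was below 0.01, which no member met with edgeR (0.1% of genes) or DESeq2 (0.6% of genes), and no member had groups without overlap (0.915% of genes higher, 0.951% lower).

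Leaving out LP 20 moved several members of this comparison. Laptm5 went from -0.16 (SE 0.37) to 0.66 (SE 0.19) and Ptpn6 from 0.04 (SE 0.32) to 0.67 (SE 0.19), both with an edgeR adjusted p of 0.179 without that mouse. Over 29 other ways of fitting, the adjusted p of Laptm5 lay between 0.179 and 0.989, and over 30, that of Ptpn6 between 0.179 and 0.998. Lcp1 went from 0.01 (SE 0.20) to 0.28 (SE 0.15), and Tyrobp from 0.31 to 0.37. Cd53 went from -0.34 to -0.07 (SE 0.22), and to 0.16 (SE 0.22) without LP 13 as well. Csf1r moved the other way, from -0.37 to -0.48 (SE 0.24), and was at -0.12 (SE 0.20) without both mice. With LP 20 left out, 6 members were higher, 3 had an unadjusted p under 0.05 (4.63% of genes higher), none was called (0.0427% of genes), and the median was 0.20. Without LP 13 as well, 7 members were higher, 4 had an unadjusted p under 0.05 (2.69% of genes higher), none was called (0.0283% of genes), and the median was 0.26.

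LP was compared with NP to ask what low protein does without high fat. The NP mice also enter the contrast with HF that the list was drawn from, so this test too depends on that choice. No member was called by edgeR or DESeq2, nor was any gene of the table by edgeR (0%). Among the receptors and adapters, Fcer1g (0.02), Fcgr1 (0.003), Fcgr3 (0.01) and Tyrobp (-0.06) had log2 fold changes near 0, with SEs of 0.15 to 0.26. Fcgr2b was at 0.18 (SE 0.20), and lay between 0.075 and 0.38 when 1 mouse was left out. Ptpn6 was higher by 0.79 (SE 0.33) and Cd53 by 0.64 (SE 0.25), with edgeR adjusted p-values of 0.635 and 0.625. These were the 2 members with an unadjusted p under 0.05, beside 5.02% of genes higher. In all, 9 members were higher (54.6% of genes), with a median of 0.19. Without LP 20 no member had an unadjusted p under 0.05 in either direction, beside 4.47% of all genes in that fit. Ptpn6 was then at 0.15 (SE 0.20), Cd53 at 0.36 (SE 0.22) and Laptm5 at -0.31 (SE 0.19), and the median was 0.059. Without both LP 13 and LP 20, 3 members were higher and the median was -0.027.

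**Figure D3:**
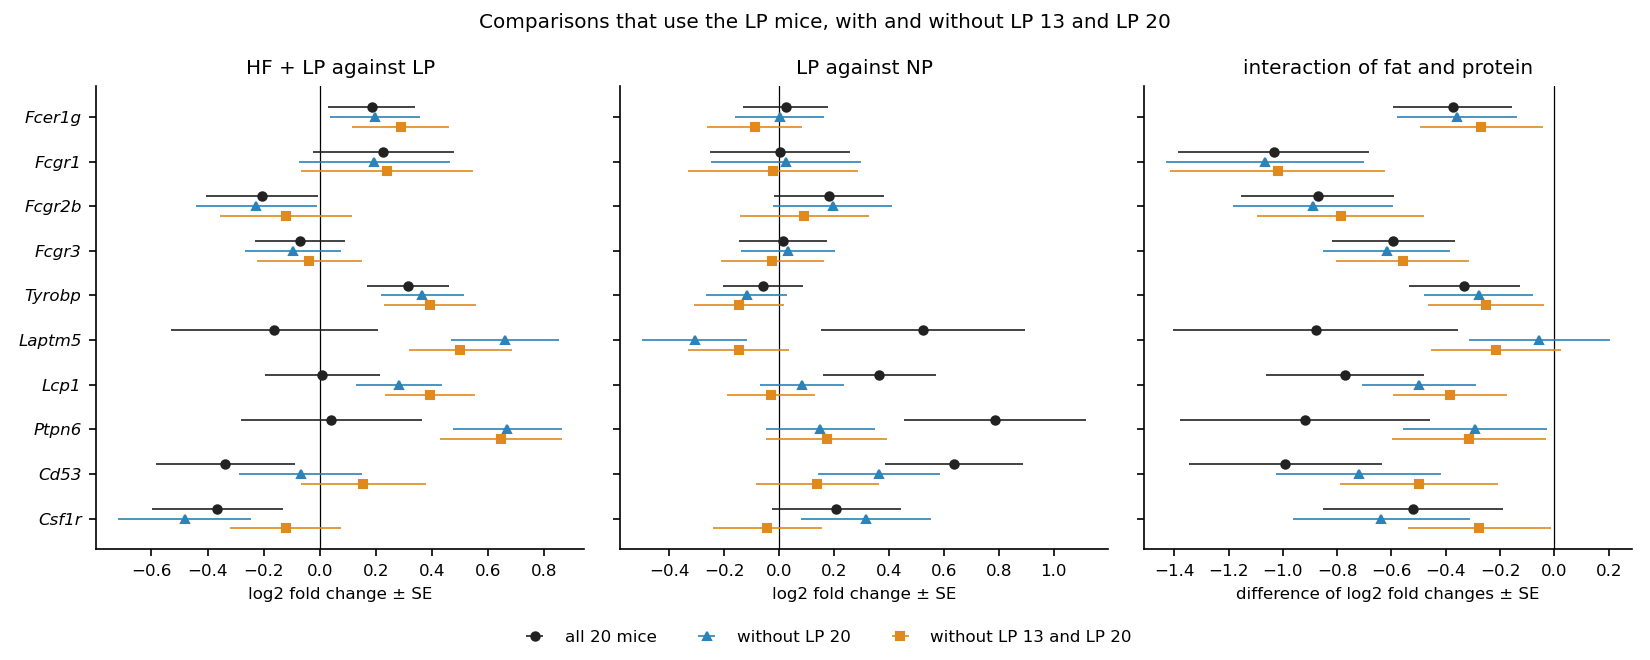
Log2 fold change ± SE (x axis) of each gene (y axis) in the 3 comparisons that use LP mice, with all 20 mice (circles), without LP 20 (triangles) and without LP 13 and LP 20 (squares). Laptm5 and Ptpn6 move from -0.16 and 0.04 to 0.66 and 0.67 in HF + LP against LP when LP 20 is left out.

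The interaction asked whether the difference from NP to HF was the same as that from LP to HF + LP, and its values hold both contrasts that the list was drawn from, so they are given as a description with no test. All 10 members had a difference below 0, with a median of -0.82 beside -0.006 over all genes, 49% of which were above 0. Fcgr1 was at -1.03 (SE 0.35), Cd53 at -0.99 (SE 0.35), Ptpn6 at -0.92 (SE 0.46), Laptm5 at -0.88 (SE 0.52) and Fcgr2b at -0.87 (SE 0.28). Without LP 20 the median was -0.56 and Laptm5 was at -0.06 (SE 0.26) and Ptpn6 at -0.29 (SE 0.27). Fcgr1 and Fcgr2b moved less, to -1.06 and -0.89. Without LP 13 and LP 20 the median was -0.35, and Fcgr1 was at -1.02 (SE 0.39).

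**Figure D4:**
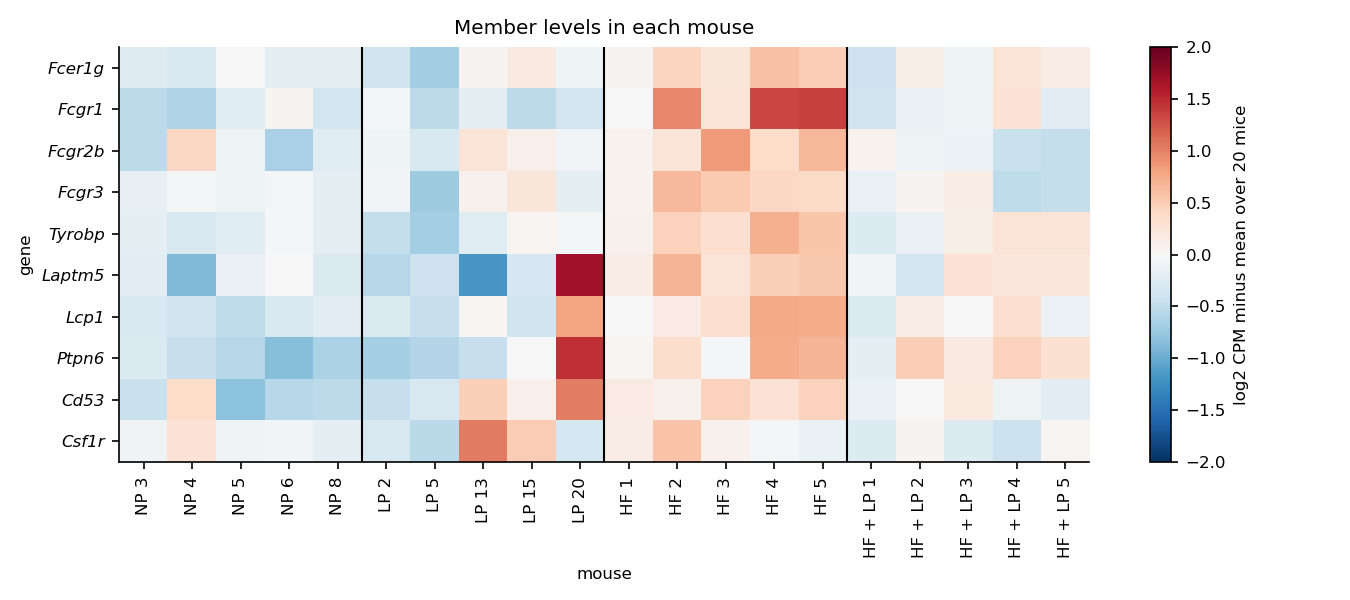
Log2 CPM minus its mean over 20 mice (color, from -2 to 2) for each gene (rows) in each mouse (columns, grouped by diet). HF 4 and HF 5 are high in most genes, LP 20 stands out in Laptm5, Ptpn6, Cd53 and Lcp1 and not in the receptor genes, and LP 13 stands out in Csf1r.

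Within diets the members did not move as a single block. Over the 20 mice, as deviations from their group means in log2 CPM, the 45 pairs of members had a median correlation of 0.28 and a range of -0.48 to 0.84. The highest was between the adapters Fcer1g and Tyrobp (0.84), followed by Lcp1 with Ptpn6 (0.81) and Laptm5 with Ptpn6 (0.75), and the lowest between Laptm5 and Csf1r. Genes measured in the same mouse share its library, depth and cell makeup, and several of the values rest on LP 20. Without it, Fcer1g with Tyrobp stayed at 0.85, Lcp1 with Ptpn6 went to 0.56, Laptm5 with Ptpn6 to 0.12, and the lowest pair was Laptm5 with Cd53 (-0.61). Without LP 13 as well, the lowest was Fcgr2b with Laptm5 (-0.53). With the mean of the other members, Lcp1 (0.76), Tyrobp (0.73), Ptpn6 (0.73) and Fcer1g (0.66) correlated most, and Fcgr2b (0.12) and Csf1r (0.0069) least. Without LP 20 the adapters Fcer1g (0.80) and Tyrobp (0.76) came first, and Laptm5 was at -0.18, or at 0.088 without both mice. Tyrobp counts per Fcer1g count varied little, at 0.624 ± 0.063 (NP), 0.593 ± 0.054 (LP), 0.658 ± 0.020 (HF) and 0.647 ± 0.078 (HF + LP; SD, n = 5).

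Averaged over the 10 members, the log2 CPM of a mouse relative to the mean of all mice was -0.27 ± 0.05 (NP), -0.10 ± 0.35 (LP), 0.40 ± 0.21 (HF) and -0.04 ± 0.10 (HF + LP; SD, n = 5). Without LP 20 the LP mean was -0.22 ± 0.25 (SD, n = 4), and without LP 13 as well it was -0.29 ± 0.26 (SD, n = 3). The HF mice ran from 0.08 in the lowest to 0.58, and the HF + LP mice from -0.21 to 0.03. The spread in LP was the widest of the 4 diets. Of 10150 other genes with a mean normalized count over 50, those whose deviations over the 20 mice followed this mean most closely were Il2rg (0.87), Itgb2 (0.86), Selplg (0.86), H2-Ab1 (0.85), Cd68 (0.84), Hcls1 (0.83), Cotl1 (0.83), Mcm6 (0.83), Zfas1 (0.83) and Inpp5b (0.83). The median over all those genes was -0.01. Il2rg encodes the common cytokine receptor γ chain, Itgb2 the leukocyte integrin β chain, Selplg a selectin ligand and H2-Ab1 a chain of MHC class II. Without LP 13, 7 of these 10 genes remained in the top 10, without LP 20 there were 3 (Selplg, Inpp5b and Cd68), and without both 1 (Selplg), so the order rests on these mice. Where the differences between groups were kept, 3 remained.

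Other genes of the same signaling system were examined as lists, chosen with earlier results of these data known. Counts of list genes with an unadjusted p under 0.05 stand beside all genes tested, of which 5.17% were higher and 7.91% lower from NP to HF at that level, and 6.26% higher and 9.66% lower from LP to HF + LP. Median log2 fold changes over all genes were -0.0011 and -0.030. Of 14 other Fc receptor genes, 7 were in the table and 4 were tested. Fcgrt, the neonatal Fc receptor of endothelium and macrophages, had normalized counts of 836 ± 46.6 (NP), 720 ± 138 (LP), 804 ± 74.95 (HF) and 823 ± 108 (HF + LP; SD, n = 5), with 0.19 (SE 0.12, edgeR adjusted p of 0.436) from LP to HF + LP. Fcgr4, which encodes another γ-chain receptor and was chosen for mention after its values were seen, had normalized counts of 12.3 ± 4.00 (NP), 14.4 ± 7.63 (LP), 40.5 ± 23.9 (HF) and 18.8 ± 5.92 (HF + LP; SD, n = 5). Its log2 fold change from NP to HF was 1.7 (SE 0.47). It was below the count minimum for a call.

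Of 26 listed receptors that pair with Tyrobp or Fcer1g, 10 were tested. From NP to HF all 10 were higher, 4 with an unadjusted p under 0.05 and a median of 0.60, and from LP to HF + LP 4 were higher and 6 lower, none with an unadjusted p under 0.05. The split was 4 and 6 without LP 20 also, and 6 and 5 of 11 tested without both mice. Cd300ld, an activating receptor of this group, averaged 105 ± 31.7 (NP), 110.0 ± 31.3 (LP), 153 ± 40.3 (HF) and 114 ± 37.5 (HF + LP; SD, n = 5). ITIM receptors that recruit Ptpn6 gave 13 higher of 14 from NP to HF (5 with an unadjusted p under 0.05, median 0.44) and 4 higher and 10 lower from LP to HF + LP (1 lower with an unadjusted p under 0.05), which became 5 and 9 without LP 20 and 7 and 7 without both mice. Whether each gene of this list carries an ITIM was not checked. Among the listed genes, Clec4a1 had a log2 fold change from NP to HF of 0.72 (SE 0.24) and Clec4a3 of 0.55 (SE 0.21). Ceacam1, an adhesion receptor also of epithelium and endothelium, was at -0.03 (SE 0.24).

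Kinases and adapters below the ITAM gave 25 higher of 27 from NP to HF, 6 of them with an unadjusted p under 0.05, with a median of 0.29. From LP to HF + LP, 8 were higher and 19 lower, with 2 and 4 at an unadjusted p under 0.05. Csk, a kinase that restrains SRC family kinases, was at -0.46 (SE 0.16, edgeR adjusted p of 0.178), Gab2, a docking protein, at 0.29 (SE 0.11, adjusted p of 0.191) and Ptpn11, the widely expressed phosphatase SHP-2, at 0.36 (SE 0.13, adjusted p of 0.191). Without LP 20, 17 were higher and 10 lower in that comparison, and without both mice 20 and 7, with Csk at -0.19 (SE 0.15) and Gab2 at 0.19 (SE 0.12). The 22 actin regulators of leukocytes depended on the same mouse. From LP to HF + LP, 20 were lower, 8 with an unadjusted p under 0.05, and from NP to LP 10 were higher at that level. Without LP 20, no gene of the list was lower from LP to HF + LP at that level and 1 was higher, and from NP to LP there was none. In all, 13 were then higher and 9 lower from LP to HF + LP, and without both mice 18 and 4. Coro1a, an actin-binding protein of leukocytes, averaged 157 ± 185 in LP and 65.8 ± 10.99 in HF + LP (SD, n = 5).

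Among 18 genes of CSF1R ligands and myeloid factors, 15 were higher from NP to HF (3 with an unadjusted p under 0.05, median 0.19), and 6 were higher and 12 lower from LP to HF + LP (3 lower with an unadjusted p under 0.05). Without LP 20, 10 were higher and 8 lower, and without both mice 9 and 9. Cebpa, a myeloid and adipocyte transcription factor, averaged 131 ± 138 in LP and 52.1 ± 13.1 in HF + LP, and Ikzf1, the lymphoid factor Ikaros, 123 ± 206 and 35.3 ± 8.49 (SD, n = 5). In both genes the LP SD exceeded the LP mean, so the LP mice did not share a level near that mean. All 9 leukocyte tetraspanins and surface proteins were higher from NP to HF (2 with an unadjusted p under 0.05, median 0.67), while 7 were lower from LP to HF + LP (2 with an unadjusted p under 0.05), 2 were lower without LP 20, and 1 was without both mice. Ptprc, which encodes the leukocyte surface phosphatase CD45, averaged 118 ± 23.1 in NP, 205 ± 49.1 in HF and 348 ± 480 in LP (SD, n = 5). The LP SD exceeded the LP mean, so that mean does not describe a level shared by the LP mice. The broadly expressed paralogs of the members gave 9 higher of 12 from NP to HF, with 1 at an unadjusted p under 0.05 and a median of 0.10. Laptm4a, the widely expressed relative of Laptm5, averaged 9178 ± 343 in NP and 10780 ± 757 in HF (SD, n = 5). From LP to HF + LP the paralogs gave 4 higher and 1 lower at an unadjusted p under 0.05, 2 higher and 2 lower without LP 20, and 2 higher and 1 lower without both mice.

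Over the 190 genes tested of these lists and the cell type marker lists, 49 (25.8%, beside 13.1% of all genes) had an unadjusted p under 0.05 from NP to HF, and 46 (24.2%, beside 15.9%) from LP to HF + LP. For HF + LP against HF it was 26 (13.7%, beside 4.84%), for LP against NP 47 (24.7%, beside 7.23%), for HF + LP against NP 20 (10.5%, beside 8.77%) and for the interaction 53 (27.9%, beside 7.17%). Several of these counts rest on LP 20 and LP 13. Without LP 20 the count was 29 (15.3%, beside 13.3%) from LP to HF + LP, 15 (7.89%, beside 4.47%) from NP to LP and 33 (17.4%, beside 5.2%) for the interaction. Without both mice, over 191 list genes tested, it was 15 (7.85%, beside 7.5%), 7 (3.66%, beside 2.68%) and 22 (11.5%, beside 3.37%) in the same order, and 35 (18.3%, beside 11.6%) from NP to HF + LP. None was called by edgeR in these comparisons with all 20 mice, and from NP to HF Myh6 was called without LP 20, and Col3a1 and Myh6 without both mice. Of all genes, edgeR called 0.264% from NP to HF, 0.1% from LP to HF + LP, 0.0286% from NP to HF + LP and 0% in the other comparisons. DESeq2 called 4 list genes from NP to HF (Col3a1, Myh6, Cx3cr1 and Ms4a6c), beside 1.17% of all genes. It called Bmp10, an atrial gene, in HF + LP against LP (0.6% of all genes), LP against NP (0.0286%) and the interaction, where it was the 1 gene called.

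Macrophage markers had the same signs as the members. From NP to HF 14 of 14 were higher (8 with an unadjusted p under 0.05, median 0.42), and from HF to HF + LP 14 of 14 were lower (4 with an unadjusted p under 0.05, beside 2.43% of genes, median -0.38). Against LP, 6 were higher in HF + LP and 8 lower, which became 8 and 6 without LP 20 and 10 and 4 without both mice, with medians of -0.048, 0.056 and 0.16. Their summed level was 293 to 362 CPM (NP), 245 to 548 (LP), 416 to 531 (HF) and 284 to 374 (HF + LP). Cx3cr1, a chemokine receptor of resident macrophages and monocytes, averaged 92.0 ± 24.6 (NP), 116 ± 21.4 (LP), 206 ± 51.2 (HF) and 164 ± 53.1 (HF + LP; SD, n = 5). Monocyte markers gave 6 higher of 7 from NP to HF (5 with an unadjusted p under 0.05, median 1.13) and 6 lower of 7 from HF to HF + LP (4 with an unadjusted p under 0.05, median -0.67), and summed to 37.1 to 50.3 CPM (NP), 32.6 to 75.6 (LP), 46.5 to 75 (HF) and 31.9 to 48.5 (HF + LP). From LP to HF + LP, 2 monocyte markers were higher, both with an unadjusted p under 0.05, and 5 lower, with a median of -0.22, and without LP 20 it was 4 and 3, with a median of 0.14. Without both mice it was 4 and 3 with a median of 0.027. Ccr2, the receptor that draws monocytes into tissue and the marker of this list with the smallest p, was 0.56 (SE 0.19) higher in HF + LP than in LP, with groups that did not overlap (0.915% of genes) and an edgeR adjusted p of 0.157. Fibroblast markers had these signs too, with 6 of 6 higher from NP to HF (median 0.18) and 6 of 6 lower from HF to HF + LP (median -0.26), and summed to 1490 to 1990 CPM (NP), 1340 to 2410 (LP), 1680 to 2320 (HF) and 1330 to 2010 (HF + LP). Endothelial markers gave 5 higher of 6 from NP to HF and 3 of 6 from HF to HF + LP, and their sums lay between 478 and 546 CPM in NP, 475 and 741 in LP, 558 and 684 in HF, and 425 and 715 in HF + LP. Atrial markers were higher from NP to HF in 5 of 5 (median 1.29) and lower from HF to HF + LP in 5 of 5 (median -1.42), none with an unadjusted p under 0.05, with sums of 137 to 3220 CPM (NP), 143 to 17700 (LP), 122 to 12300 (HF) and 50.3 to 5210 (HF + LP). Their HF values were uneven, since HF 1 and HF 3 held 12300 and 4750 CPM and the other HF mice 122 to 199. Erythroid markers were higher in 5 of 5 both from NP to HF (median 0.58) and from HF to HF + LP (median 0.24). The part of these cell types in the members' values was not tested.

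Neutrophils and mast cells also express several members. Neutrophil markers summed to 6.22 to 13.0 CPM (NP), 8.30 to 24.2 (LP), 6.45 to 24.1 (HF) and 7.74 to 24.1 (HF + LP), and 4 of 10 of them were not in the table. Of the 5 tested, 4 were higher from NP to HF (3 with an unadjusted p under 0.05, median 1.01), and from HF to HF + LP 3 were higher and 2 lower (median 0.015). Against LP, the HF + LP mice had 4 higher and 1 lower, also without LP 20, and 2 and 3 without both mice. Mast cell markers summed to 5.81 to 9.33 CPM (NP), 3.95 to 33.1 (LP), 4.83 to 14.0 (HF) and 4.82 to 6.72 (HF + LP), with LP 13 highest. Of 5 tested, 2 were higher from NP to HF (median -0.096) and from LP to HF + LP all 5 were lower (2 with an unadjusted p under 0.05). Without LP 20 all 5 were lower, 1 at that level, while without both mice 3 were higher and 2 lower. Their defining IgE receptor chains Fcer1a and Ms4a2 were not in the table. The lymphocyte markers were high in LP 20, where Laptm5, Ptpn6, Lcp1 and Cd53 were also the highest of all LP mice. In that mouse Fcer1g was 1.05-fold, Tyrobp 1.24-fold, Fcgr1 0.97-fold, Fcgr2b 0.956-fold, Fcgr3 0.873-fold and Csf1r 0.702-fold the median of the other LP mice. The part of lymphocytes in its values was not tested. All 7 cardiomyocyte markers were lower in HF than in NP (3 with an unadjusted p under 0.05, median -0.21) and all 7 were higher in HF + LP than in HF (none at that level, median 0.17), and their summed level was 31600 to 44500 CPM over the 20 mice.

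**Figure D5:**
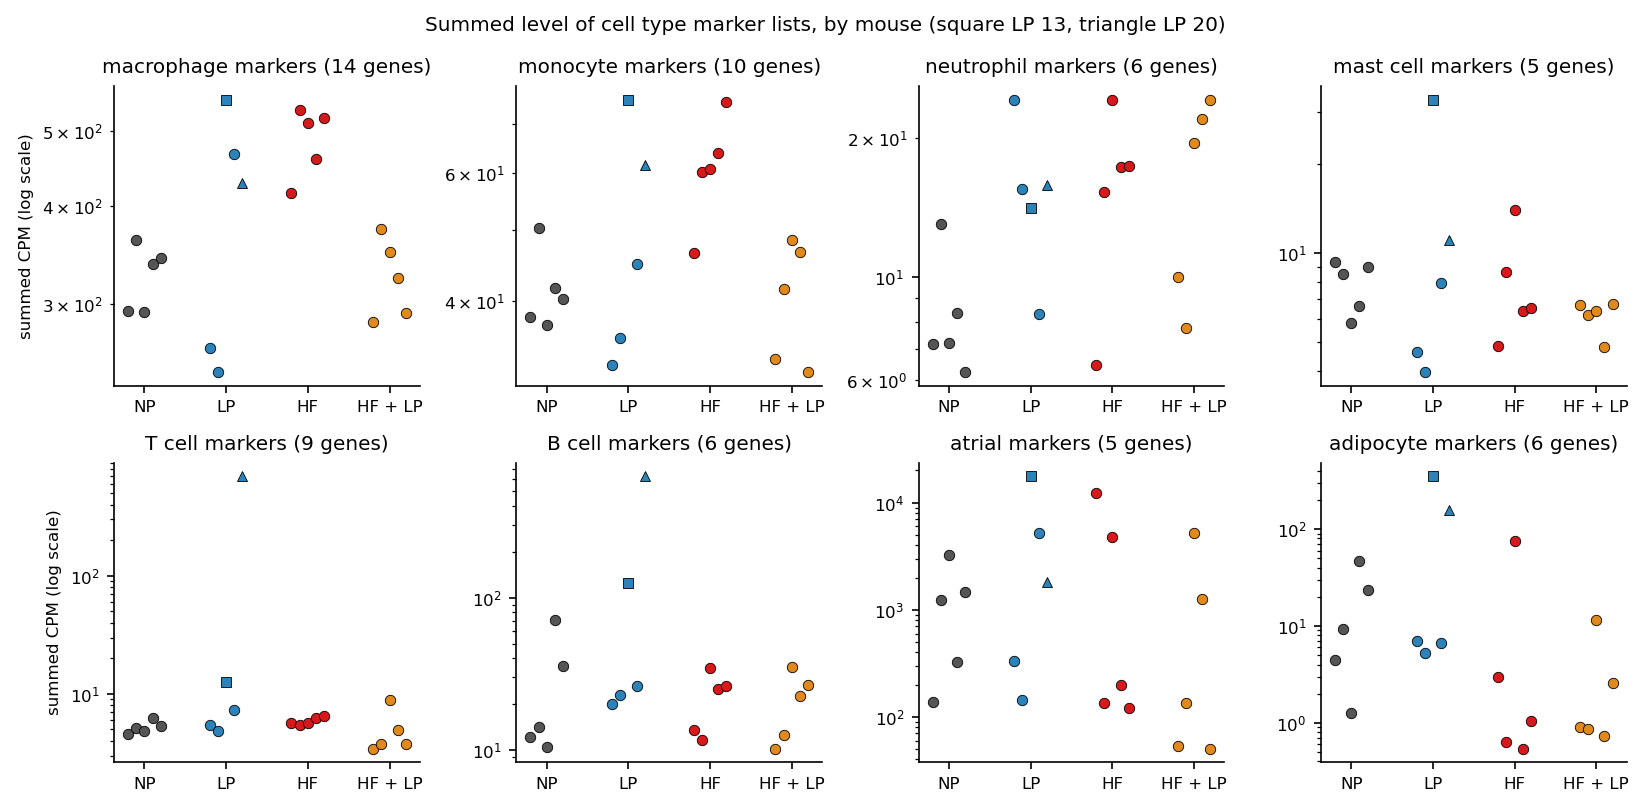
Summed CPM (y axis, log scale) of 8 lists of cell type markers in each mouse, grouped by diet (x axis), with a square for LP 13 and a triangle for LP 20. Macrophage sums are 416 to 531 CPM in HF and 293 to 362 CPM in NP, and LP 20 lies far above the other mice in T cell markers.

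Library names carry a number from 1 to 3, which the labels do not call a batch and which is spread over the diets. Within each number, the median difference of the members from NP to HF was 0.38, 0.70 and 0.78, and from HF to HF + LP it was -0.29, -0.44 and -0.39, with 1 to 3 mice on each side. From LP to HF + LP it was -0.15, -0.07 and 0.43, and so differed in sign between the numbers. The LP mice were LP 2 and LP 13 in number 1, LP 20 alone in number 2, and LP 5 and LP 15 in number 3. The numbers and the 2 LP mice that stood apart cannot be told apart here.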

How the data were processed

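The authors sequenced 75 bp QuantSeq 3′ mRNA libraries on a NextSeq instrument. Alignment was done in BlueBee, and the authors deposited unnormalized counts for each mouse by Ensembl gene. The submitters' processing notes name GRCm38 and DESeq2 1.22.2. The counting program is not given in the sources used here. Every one of the 15956 genes listed had at least 60 counts over the 20 libraries.

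Counts were filtered with filterByExpr, scaled by TMM and fitted to all 20 libraries with 1 coefficient per diet by edgeR's quasi-likelihood test (edgeR 4.0.16, R 4.3.3), with Benjamini-Hochberg adjustment over 13991 genes. A gene was called at an adjusted p under 0.01 if its normalized count averaged over 50. A normalized count is the count divided by the effective library size relative to its mean over libraries. Log2 CPM used a prior count of 2, and SEs were derived from the F statistic. Positions are from GENCODE M21 and promoters from RefSeq. On counts simulated for 13991 genes in HF + LP against LP, of which 13801 passed the filter, edgeR called 186 of 200 genes changed by 1.5 on the log2 scale, and 2 unchanged genes. The changed genes all averaged over 50, and their change was larger than that of any member in this comparison. How often smaller differences are called was not tested. DESeq2 1.42.0, other filters and scalings, a library number term, a replicate block and leaving out each mouse were alternatives. Leaving out LP 13 with LP 20, and leaving out LP 20 alone or both from the correlations, was added after seeing the data. The members and lists were chosen with earlier results of these data known. All members are named, and from each other list up to 3 genes with a mean normalized count over 50 and the smallest p in HF + LP against LP. Intervals and SEs cover the spread between separate animals. It was estimated over all diets together, so LP 13 and LP 20 also enter the SEs of comparisons without LP mice.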

Additional observations from a re-analysis of the deposited data

Results flagged for a closer look

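Csf1r in NP 4 was flagged because that mouse lay apart from the other 4 NP mice. Its level was 6.15 log2 CPM, the next highest NP mouse had 5.80, and the gap took up a share of 0.742 of the range of the group, above the critical value for 5 samples. It was the 1 flagged of 40 group values checked (10 genes in 4 diets), where chance flags about 5%.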

How the results depend on the processing

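Over the alternatives tried, 54 values of single members changed sign. The count of members called from NP to HF, a contrast the list was drawn from and given as a description only, was 0 by edgeR, and 1 with DESeq2 (1.17% of all genes in that fit), 1 at an adjusted p under 0.05 (1.12%) and 2 without LP 13 and LP 20 (0.537%), which also changed the genes tested. It was 0 for every comparison in each fit that left out 1 mouse. The number of all genes called ranged from 2 to 163 for HF against NP, 0 to 84 for HF + LP against LP, 0 to 16 for HF + LP against HF, 0 to 4 for LP against NP, 1 to 31 for HF + LP against NP and 0 to 1 for the interaction. Same-numbered mice of different diets are different animals, and their deviations correlated between -0.55 and 0.48, so the numbers do not pair them. With the replicate block nevertheless fitted, the median of the members was 0.40 for HF + LP against LP, -0.18 for LP against NP, 0.35 for HF + LP against NP and -0.24 for the interaction. In that fit Fcgr3 (0.27), Laptm5 (0.64), Cd53 (0.24) and Csf1r (0.39) changed sign for HF + LP against LP, Fcer1g (-0.45), Fcgr2b (-0.12), Fcgr3 (-0.39), Laptm5 (-0.079), Ptpn6 (-0.24) and Csf1r (-0.70) for LP against NP, and Fcer1g (0.097), Ptpn6 (0.11) and Csf1r (0.40) for the interaction. Without LP 13 and LP 20 the median was 0.26 for HF + LP against LP, -0.027 for LP against NP and -0.35 for the interaction. There Laptm5 (0.50) and Cd53 (0.16) changed sign for HF + LP against LP, and Fcer1g (-0.089), Fcgr1 (-0.022), Fcgr3 (-0.025), Laptm5 (-0.15), Lcp1 (-0.028) and Csf1r (-0.043) for LP against NP. For HF + LP against LP, Lcp1 was at -0.012 with at least 10 counts per library and at -0.018 with the library number as a term, which put Laptm5 at 0.016. For LP against NP, Fcgr1 was at -0.0056 with no filter. Leaving out 1 mouse at a time, the median ranged from -0.15 to 0.20 for HF + LP against LP, with Fcgr3 from -0.19 to 0.025, Laptm5 from -0.37 to 0.66, Lcp1 from -0.087 to 0.28, Cd53 from -0.47 to -0.068 and Ptpn6 from -0.11 to 0.67. For LP against NP it ranged from 0.028 to 0.32, with Csf1r from -0.12 to 0.35, Fcer1g from -0.071 to 0.13, Fcgr1 from -0.0797 to 0.13, Fcgr3 from -0.083 to 0.14, Laptm5 from -0.31 to 0.73, Lcp1 from 0.084 to 0.46 and Tyrobp from -0.14 to 0.029. The interaction median ranged from -0.90 to -0.56. For these values, the cause was not tested. At these depths Fcgr1, with 43.0 normalized counts on average, is the least precisely counted member.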
